A study of Mus musculus with 2 samples.

Results

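The RNA of 48 genes that mark 2 stages of the cell division cycle was followed across the mouse lung on its first postnatal day. They comprised 21 genes of S phase, when DNA is copied, and 27 genes of G2 and mitosis (G2/M), when the cell prepares for and carries out division. The members were a named list, chosen by gene and not by their level, and all 48 had a row in the count matrices of both samples, among 22444 genes listed in both. Whole lungs of female C57BL/6J mice, wt and at postnatal day 1 (PND1), were digested with TrypLE and collagenase, treated with a red blood cell lysis buffer and profiled by Drop-seq, which captures single cells in droplets and tags each captured RNA molecule at its 3′ end with a unique molecular identifier (UMI). The 2 samples, Batch 1 and Batch 2, each came from 1 mouse, so that a batch and a mouse cannot be told apart. No treatment or mutant was compared, and the comparisons were therefore made between lineages and cell classes of the same lungs.

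A cell enters S phase after cyclin E and its kinase release E2F factors to switch on the replication genes. The Mcm2 to Mcm7 ring then unwinds DNA, Pcna clamps the polymerases to it, and ribonucleotide reductase and thymidylate synthase supply the building blocks. Genes of G2/M rise later and fall again when the cell divides, among them the cyclins A and B, the kinases that drive entry into mitosis, the kinesins that move chromosomes and the proteins of the kinetochore, the structure that ties chromosomes to the spindle. The lung at birth holds growing fibroblasts, capillaries and alveolar epithelium, together with resident and incoming immune cells. A level averaged over a lineage mixes cells in cycle with resting cells.

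Of 2389 deposited cells of Batch 1, 1 exceeded the limit of 10.0% mitochondrial UMIs, and 2388 cells with 4432553 UMIs and a median of 1386.5 UMIs per cell were kept. Batch 2 lost 1940 of 7555 cells to that limit and kept 5615 cells with 18232639 UMIs and a median of 2014. No cell barcode was shared between the batches (0 shared). Clusters drawn without cell cycle genes placed 349 and 1458 cells in the epithelial, 602 and 1551 in the endothelial, 1159 and 1971 in the mesenchymal and 186 and 531 in the immune lineage, in Batch 1 and Batch 2. In Batch 1, 99.0% of the 1860 cells that also had a lineage in the authors' own cell list stood in the same lineage here.

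Molecules of the 48 genes were few. The S genes gave 1220 UMIs in Batch 1 and 4668 in Batch 2, and the G2/M genes gave 3511 and 26695. A pair of G2/M genes held 51.2% of all member UMIs in Batch 1 and 58.9% in Batch 2. They were Hmgb2, a chromatin protein of the HMG box family, with 30.2% and 32.4%, and Smc4, a core subunit of the condensin ring that compacts mitotic chromosomes, with 21.03% and 26.5%. Because both RNAs were also abundant in cells where no other member was found, list levels are given without them where stated, a choice made after their values were seen. Pcna (227 and 1177 UMIs), the sliding clamp of replication, and Slbp (219 and 901), which binds the stem-loop of histone mRNAs, led the S list. Top2a, the topoisomerase that untangles replicated DNA (166 and 1151), and Mki67, the coat protein of mitotic chromosomes better known as Ki-67 (91 and 882), followed in the G2/M list. At the other end, 6 and 19 UMIs of Ung, a DNA repair glycosylase, and 7 and 47 of Plk1, a mitotic kinase, were counted.

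The promoters of the 2 lists carried different short motifs, which the choice of members had not used. RefSeq promoters of 300 bases, from 250 before to 50 after the start, were matched by symbol for 41 members (build GRCm38.p6), with 21 promoters of S genes and 24 of G2/M genes. They were searched on both strands for the E2F words TTTGGCGC and TTTCCCGC, the CCAAT box and the cell cycle homology region (CHR, TTTGAA), and matches were allowed to overlap. Either E2F word lay in 7 S promoters (33.3%), in 0 of the 24 G2/M promoters and in 1.56% of all 32851 promoters of the same length. CHR lay in 14.3% of S, 75.0% of G2/M and 17.9% of all promoters, and CCAAT in 61.9%, 87.5% and 37.4%. Both CCAAT and CHR were found in 9.52% of S, 70.8% of G2/M and 6.95% of all promoters. The promoters were not matched for base composition, and a match is a description of letters, not of a bound site. Stretches of 100 bases are shown because they hold these motifs, in capitals, on either strand; all are written 5′ to 3′ on the strand of the gene. Mcm5 (chr8:75109349-75109448, plus strand), Mcm6 (chr1:128359726-128359825, minus strand) and Hells (chr19:38930890-38930989, plus strand) are S genes, and Hells is a helicase of the chromatin remodelling kind. Cdc20 (chr4:118437344-118437443, minus strand), the activator of the anaphase-promoting complex, Cdk1 (chr10:69352913-69353012, minus strand), the mitotic kinase, and Top2a (chr11:99024190-99024289, minus strand) are G2/M genes.
Mcm5: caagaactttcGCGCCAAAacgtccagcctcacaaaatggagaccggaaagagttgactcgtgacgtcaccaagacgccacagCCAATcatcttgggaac
Mcm6: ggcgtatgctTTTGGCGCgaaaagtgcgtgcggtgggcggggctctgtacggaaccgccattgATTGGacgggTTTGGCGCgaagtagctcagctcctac
Hells: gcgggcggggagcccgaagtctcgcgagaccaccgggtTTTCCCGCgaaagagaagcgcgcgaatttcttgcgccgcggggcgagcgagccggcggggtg
Cdc20: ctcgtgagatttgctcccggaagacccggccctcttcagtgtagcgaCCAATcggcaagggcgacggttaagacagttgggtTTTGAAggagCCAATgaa
Cdk1: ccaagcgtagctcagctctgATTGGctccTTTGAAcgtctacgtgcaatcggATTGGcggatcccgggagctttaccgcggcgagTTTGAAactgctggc
Top2a: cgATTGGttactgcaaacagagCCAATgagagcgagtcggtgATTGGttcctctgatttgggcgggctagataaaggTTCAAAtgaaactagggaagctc
The Mcm6 stretch holds the E2F word in 2 copies and 1 CCAAT box, whereas the Cdk1 stretch holds 2 CCAAT boxes and 2 CHR words and no E2F word.

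Immune cells carried the highest level of both lists and epithelial cells the lowest, in each batch. Levels are UMIs of a gene or list per 1000000 UMIs of the lineage (CPM), with exact Poisson 95% intervals that cover counting error only. The S genes stood at 514 (440 to 596) CPM in immune cells of Batch 1 and 562 (520 to 605) in Batch 2. Endothelial cells followed with 391 (357 to 428) and 297 (282 to 313), mesenchymal cells with 211 (189 to 234) and 269 (253 to 286), and epithelial cells with 166 (142 to 193) and 184 (175 to 194). In Batch 2 the endothelial and mesenchymal S levels thus lay close together, while in Batch 1 they were well apart. The G2/M genes without Hmgb2 and Smc4 showed the same order, with 664 (580 to 757) and 1443 (1376 to 1511) in immune, 379 (345 to 415) and 653 (630 to 677) in endothelial, 127 (110 to 145) and 353 (334 to 373) in mesenchymal and 85.9 (68.8 to 106) and 200 (190 to 210) in epithelial cells. Member by member, immune cells were highest in both batches for 13 of 21 S genes and 19 of 27 G2/M genes, and epithelial cells were lowest in both for 10 and 14. A summed level cannot tell more cells in cycle from more member RNA per cell, which the cell shares given further on address in part.

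**Figure D1:**
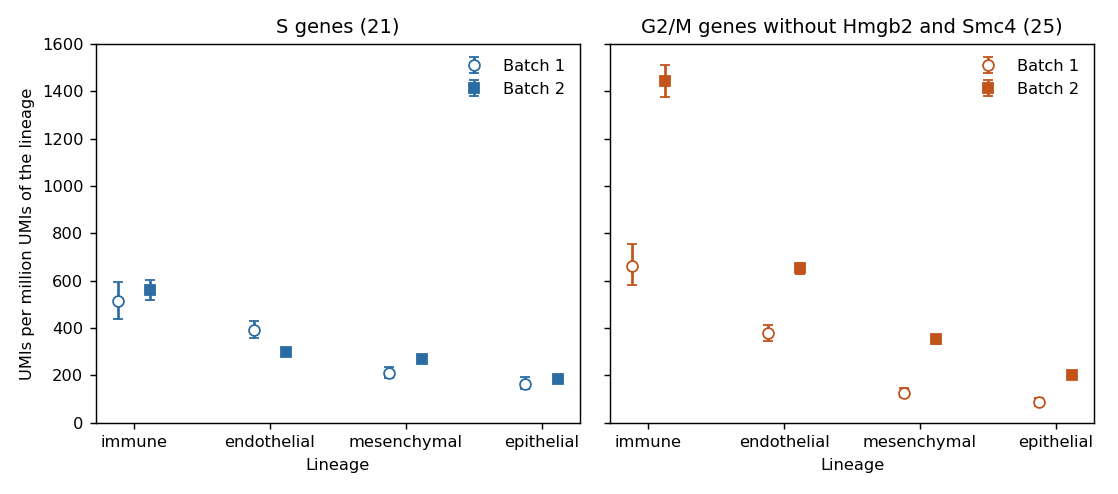
Level of the 21 S genes and of the 25 G2/M genes other than Hmgb2 and Smc4 in the 4 lineages, in CPM of the lineage, with points for each batch and exact Poisson 95% intervals as bars. Immune cells are highest in both panels, and G2/M points of Batch 2 lie above those of Batch 1 in every lineage while the S points do not.

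Of the S list, the 6 subunits of the replicative helicase were each called in at least 1 comparison between lineages. Each of the 6 lineage comparisons called 24.6% to 33.9% of all 12002 genes tested, a share to be set beside every such tally below. How many genes were called at least once was not counted. Mcm2 to Mcm7 together stood at 153 and 148 CPM in immune, 107 and 89.5 in endothelial, 66.4 and 81.7 in mesenchymal and 32.6 and 35.1 in epithelial cells, in Batch 1 and Batch 2. Mcm3 had 38.4 and 22.7 CPM in immune, 27.5 and 16.7 in endothelial, 6.03 and 7.75 in mesenchymal and 4.94 and 2.46 in epithelial cells, so that immune and endothelial values lay above the other lineages in both batches. Its fitted log2 difference of epithelial from endothelial cells was -2.48 ± 0.42 (SE; adjusted p = 0.00261), and from immune cells -3.08 ± 0.46 (adjusted p = 0.0014). Mcm5 was read at 17.7 and 17.0 CPM in immune cells against 3.33 and 7.60 in endothelial, 3.62 and 4.27 in mesenchymal and 1.97 and 1.36 in epithelial cells. Epithelial cells lay below immune cells in Mcm5 by -3.50 ± 0.62 (adjusted p = 0.00337). Mcm2 was lower in epithelial (0.987 and 1.602 CPM) than in endothelial cells (12.5 and 8.65; -2.38 ± 0.57, adjusted p = 0.0125) and immune cells (8.86 and 8.11; -2.31 ± 0.68, adjusted p = 0.031), the latter from 3 and 10 UMIs. Mcm4 differed in another way, since mesenchymal cells (15.1 and 16.6) were level with endothelial cells (15.0 and 13.1) and epithelial cells (2.96 and 3.57) lay below all 3. Mcm4 was the single S gene called between epithelial and mesenchymal cells, at -1.98 ± 0.36 (adjusted p = 0.0038). Mcm6 was called in 5 comparisons, 4 between lineages and 1 between classes. Mcm7 was called in 1 comparison, where epithelial cells (14.8 and 14.4) were below immune cells (29.5 and 36.5) by -1.16 ± 0.37 (adjusted p = 0.0417).

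The other S genes differed among themselves in which lineages they separated. Rrm2, the small subunit of ribonucleotide reductase, stood at 50.2 and 28.4 CPM in immune cells and between 0.987 and 10.8 in the other lineages, and was lower in endothelial cells by -2.87 ± 0.65 (adjusted p = 0.0121). Cdt1, which loads the Mcm ring, had 17.7 and 30.0 in immune cells and 1.97 to 5.83 elsewhere, with an endothelial difference of -2.36 ± 0.51 (adjusted p = 0.0106). Rrm1, the large subunit, differed less between lineages and was called in none of the lineage comparisons. Endothelial cells exceeded mesenchymal cells in Tyms, the thymidylate synthase (25.8 and 12.2 against 6.64 and 4.54; 1.68 ± 0.42, adjusted p = 0.0197), and in Uhrf1, which couples DNA methylation to replication (15.0 and 2.95 against 1.81 and 0.801; 2.45 ± 0.69, adjusted p = 0.033). The Uhrf1 value rests on 18 and 14 endothelial UMIs against 3 and 3 mesenchymal ones. Pcna was higher in immune cells (94.5 and 129 CPM) than in mesenchymal (31.4 and 63.3; -1.41 ± 0.30, adjusted p = 0.00834) and epithelial cells (32.6 and 50.3; -1.35 ± 0.31, adjusted p = 0.0101). Slbp was called in 1 comparison, mesenchymal below immune by -0.84 ± 0.26 (adjusted p = 0.0405), and its levels ranged from 42.4 to 90.1 over all lineages and batches. Fen1, the flap nuclease of the lagging strand, Cdc45, a helicase partner, and Hells were called in 3, 1 and 1 comparisons.

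Genes of the kinetochore and spindle differed in how many comparisons called them, where each lineage comparison called 24.6% to 33.9% of all genes tested. Cenpe, the kinetochore motor, was read at 44.3 and 163 CPM in immune, 30.0 and 56.3 in endothelial, 9.05 and 34.5 in mesenchymal and 4.94 and 8.50 in epithelial cells, the same order in both batches. It was called in all 6 lineage comparisons, with an epithelial to immune difference of -3.95 ± 0.37 (adjusted p = 0.000142). Cenpf, also of the kinetochore, was called in the same 6 comparisons, and its endothelial level of 71.9 in Batch 2 stood between 117 in immune and 34.5 in mesenchymal cells. Birc5, or survivin, of the chromosomal passenger complex, had 62.0 and 61.7 CPM in immune and 0 UMIs in the 349 epithelial cells of Batch 1, which allows up to 2.96 CPM, and 12 UMIs in Batch 2. The fitted epithelial to immune difference of Birc5 was -5.73 ± 0.57 (adjusted p = 0.000176), a value that depends in part on the count added to the empty library. Cenpa, the centromeric histone, was lower in epithelial than in endothelial cells by -3.72 ± 0.40 (adjusted p = 0.000317), with 0.987 and 3.45 against 22.5 and 49.4. The motors and bundlers Kif23 and Kif20b of cytokinesis, Nusap1 and Tpx2 of the spindle were called in 3, 3, 3 and 4 comparisons. Prc1, a bundler of the central spindle, was called in none, with 8.89 and 8.75 in epithelial and 14.8 and 40.6 in immune cells.

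Among the other G2/M genes, Mki67 stood at 50.2 and 191 CPM in immune, 24.96 and 47.0 in endothelial, 15.1 and 43.8 in mesenchymal and 5.92 and 8.01 in epithelial cells. Epithelial cells were below mesenchymal (-1.96 ± 0.37, adjusted p = 0.00422) and immune cells (-4.15 ± 0.38, adjusted p = 0.000125) in Mki67, and endothelial cells were below immune cells (-1.83 ± 0.32, adjusted p = 0.00389). Ccnb1, a cyclin B, was higher in endothelial cells (4.99 and 12.4) than in mesenchymal cells (0.603 and 3.47), by 2.06 ± 0.53 (adjusted p = 0.0221). Ube2c, the ubiquitin-conjugating enzyme of the anaphase-promoting complex, showed 24.96 and 36.3 in endothelial against 4.22 and 9.08 in mesenchymal cells (2.17 ± 0.31, adjusted p = 0.00146). Cdk1 lay between 11.8 and 23.3 CPM in the other 3 lineages and at 4.94 and 6.41 in epithelial cells, and was called lower in epithelial than in endothelial and immune cells. The cyclins Ccna2 and Ccnb2, Cdc20, the checkpoint kinase Bub1 and the passenger kinase Aurkb were each called in 2 to 4 comparisons, never higher in epithelial or lower in immune cells. Hmgb2 was read at 891 and 1463 in immune, 368 and 838 in endothelial, 299 and 534 in mesenchymal and 129 and 280 in epithelial cells, and was called in 5 of the 6 comparisons. Smc4 went another way, with 234 and 437 in epithelial, 307 and 518 in endothelial, 163 and 478 in mesenchymal and 218 and 325 in immune cells, and was called in no comparison. Its epithelial to immune difference was 0.35 ± 0.24 (adjusted p = 0.301).

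A single member was called higher in epithelial cells. Cks2, a small subunit of cyclin-dependent kinases, stood at 9.87 and 34.8 CPM in epithelial and 4.22 and 15.0 in mesenchymal cells, a log2 difference of 1.46 ± 0.41 (adjusted p = 0.0256). In Batch 2, 202 of its 282 epithelial UMIs came from 88 cells of 1 cluster, and the other 1370 epithelial cells stood at 11.95 CPM, under the mesenchymal level. Cks2 was not called in this comparison by DESeq2 (adjusted p = 0.0502), with thinned cells (adjusted p = 0.137) or without the batch block (adjusted p = 0.248). Top2a was called between epithelial and immune cells (-2.15 ± 0.48, adjusted p = 0.00936) but not between epithelial and endothelial cells (-0.87 ± 0.46, adjusted p = 0.185), where Mki67, Birc5 and Cenpa were. Its epithelial level rose from 10.9 CPM in Batch 1 to 52.3 in Batch 2, against 132.8 and 150.1 in immune cells. The cells behind these epithelial values are described further on.

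The counts of members called were as follows, each beside the share of all 12002 genes tested that was called in the same comparison. 40 members passed the filter on low counts; Cdc6, Ung, Ccne1, Bub1b, Aurka, Kif11, Ttk and Plk1 did not. Between epithelial and endothelial cells 23 members were called, 7 S and 16 G2/M, all lower in epithelial cells, where 33.9% of genes were called and 15.7% were called lower. Between epithelial and mesenchymal cells 9 were called (1 S and 8 G2/M, 8 lower and 1 higher), a smaller share of the 40 than the background of 30.7%. By direction, 13.7% of all genes were called lower and 17.0% higher there. By list, 36.4% of the 22 G2/M genes tested and 5.56% of the 18 S genes tested were called. Epithelial against immune cells gave 32, of which 12 were S and 20 G2/M, all lower, against 33.6% of genes called and 15.3% called lower. Endothelial cells exceeded mesenchymal cells in 13 members, 4 S and 9 G2/M, where 24.6% of genes were called and 12.4% were called higher. They lay below immune cells in 11, 3 S and 8 G2/M, where 26.7% were called, so that the total was close to background and only its single direction (13.5% of genes called lower) was not. Mesenchymal cells lay below immune cells in 30, 11 S and 19 G2/M, against 32.8% called and 16.3% called lower. The median log2 difference of the G2/M genes was larger in size than that of the S genes in each comparison, at -2.23 against -0.75 for epithelial to endothelial, -3.04 against -1.74 for epithelial to immune, -2.34 against -1.48 for mesenchymal to immune and 1.27 against 0.63 for endothelial to mesenchymal, with medians over all genes between -0.02 and 0.09. Without the batch as a block the fit called 8, 1, 20, 3, 2 and 14 members in the same order of comparisons. With each cell thinned to 600 UMIs, 20 members could be tested and 11, 4, 12, 6, 5 and 14 were called. The counts of these alternative fits are not set beside the share of all genes called in the same fit. They therefore do not tell whether members lost more calls than other genes.

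**Figure D2:**
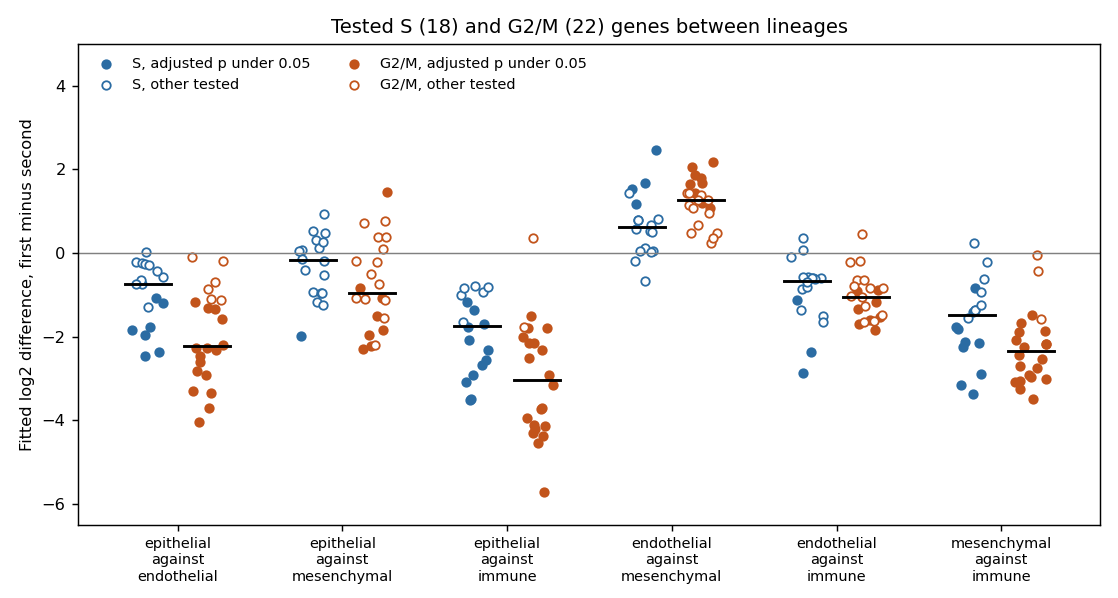
Fitted log2 differences of the 18 S and 22 G2/M genes tested, for the 6 comparisons between lineages, each point 1 gene and filled points those called at an adjusted p under 0.05; positive values are higher in the first lineage named. Black lines mark the medians of each list, which lie further from 0 for G2/M than for S in each comparison, as at -3.04 against -1.74 for epithelial against immune cells.

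Of 87 other genes of the cycle, 69 passed the filter. Called were 30 of them between epithelial and endothelial cells (5 higher and 25 lower), 16 between epithelial and mesenchymal (5 and 11), 35 between epithelial and immune (4 and 31), 13 between endothelial and mesenchymal (10 and 3), 18 between endothelial and immune (5 and 13) and 23 between mesenchymal and immune cells (1 and 22). Those were 43.5%, 23.2%, 50.7%, 18.8%, 26.1% and 33.3% of the 69. Of all genes tested, 33.9%, 30.7%, 33.6%, 24.6%, 26.7% and 32.8% were called in the same order. The counts of epithelial or endothelial against mesenchymal cells thus lay under background. Those of endothelial or mesenchymal against immune cells were close to it in total. By direction, the 22 lower and 1 higher in mesenchymal than in immune cells stood beside 16.3% and 16.4% of all genes. In endothelial against immune cells the 13 lower and 5 higher stood beside 13.5% and 13.1%. For epithelial against endothelial cells, 15.7% of all genes were called lower and 18.2% higher. Tubb5, a beta-tubulin, was lower in epithelial than in endothelial cells by -3.25 ± 0.41 (adjusted p = 0.000622), and the condensin subunit Ncaph by -3.84 ± 0.50 (adjusted p = 0.000764), the direction of the members called there. Between endothelial and immune cells they went against the members, since Tubb5 was higher in endothelial cells by 1.27 ± 0.38 (adjusted p = 0.0378) and Ncaph by 2.43 ± 0.54 (adjusted p = 0.0119). E2f2, an E2F factor, was higher in epithelial than in endothelial cells by 2.99 ± 0.47 (adjusted p = 0.00168; 39 and 275 UMIs against 10 and 18), and Cdc25b, a phosphatase that activates mitotic kinases, by 2.61 ± 0.43 (adjusted p = 0.00208). Both were thus opposite in direction to the members called in that comparison. Ccnd1, cyclin D1, was lower in epithelial than in endothelial cells by -2.05 ± 0.36 (adjusted p = 0.00289), and higher in endothelial than in mesenchymal cells by 3.60 ± 0.39 (adjusted p = 0.000409), in both cases the direction of the members. It was also higher in endothelial than in immune cells, by 3.38 ± 0.43 (adjusted p = 0.000835), where the members called were lower. Cdkn1c, the inhibitor p57, was lower in endothelial than in mesenchymal cells by -2.91 ± 0.48 (adjusted p = 0.00291; 68 and 310 UMIs against 899 and 1544).

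The balance of S against G2/M was read as the S share of member UMIs in each lineage, with exact Clopper-Pearson 95% intervals. Over all members it was 26.97% (23.5 to 30.6), 27.1% (24.995 to 29.2), 26.4% (24.0 to 28.8) and 22.5% (19.6 to 25.6) in epithelial, endothelial, mesenchymal and immune cells of Batch 1. The corresponding shares of Batch 2 were 16.7% (16.0 to 17.5), 12.9% (12.3 to 13.5), 16.5% (15.6 to 17.4) and 14.8% (13.8 to 15.9). Without Hmgb2 and Smc4 the lineages parted: epithelial cells had an S share of 65.9% (59.7 to 71.7) and 47.96% (46.2 to 49.7), mesenchymal 62.4% (58.3 to 66.5) and 43.3% (41.2 to 45.3), endothelial 50.8% (47.5 to 54.1) and 31.3% (29.9 to 32.7), and immune cells 43.6% (38.7 to 48.6) and 28.0% (26.2 to 29.8). This order, epithelial, mesenchymal, endothelial, immune, was the same in both batches, the reverse of the order of the levels. The epithelial and mesenchymal intervals overlapped in Batch 1. The epithelial share of Batch 2 mixed unlike cells. There 325 epithelial cells of no single class, at an S share of 39.2%, held 1063 of the 1623 G2/M UMIs without Hmgb2 and Smc4. Alveolar AT1-like and AT2-like cells had 70.5% and 61.5%, ciliated-like cells 25.3% and secretory airway-like cells 81.6%.

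The batches differed more in the G2/M list than in the S list. Its summed level was higher in Batch 2 than in Batch 1 by 2.04 times in epithelial, 1.91 in endothelial, 2.32 in mesenchymal and 1.82 in immune cells, and 21, 23, 25 and 23 of its 27 members were higher. The S list changed by 1.11, 0.761, 1.28 and 1.09 times, with 10, 3, 13 and 12 of 21 members higher in Batch 2. Its intervals given above did not overlap between batches in endothelial cells, lower in Batch 2, or in mesenchymal cells, higher in Batch 2. Median UMIs per cell also differed, at 2277 and 3534.5 in epithelial, 1351.5 and 1900 in endothelial, 1267 and 1686 in mesenchymal and 1390.5 and 1848 in immune cells. With 1 mouse in each batch the difference has no replicate check, and the part of depth in it is given by the thinned cells that follow.

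At equal depth the same lineages led. Each cell was thinned to 600 UMIs, under the lowest total of any kept cell (659 and 616), so that none was lost. At least 2 UMIs of the 48 genes were then found in 8.31% (5.64 to 11.7) and 12.1% (10.5 to 13.9) of epithelial, 8.63% (7.08 to 10.4) and 20.8% (19.0 to 22.6) of mesenchymal, 12.6% (10.1 to 15.5) and 30.0% (27.7 to 32.3) of endothelial and 21.5% (15.8 to 28.1) and 31.3% (27.3 to 35.4) of immune cells. Endothelial and immune cells of Batch 2 had overlapping intervals. Most of this came from Hmgb2 and Smc4. Without them the shares were 1.72% and 1.65% in epithelial, 2.16% and 3.40% in mesenchymal, 4.65% and 6.96% in endothelial and 9.14% and 16.0% in immune cells. For S genes alone (at least 2 UMIs, Slbp left out) the shares were 0.287% and 0.412%, 0.777% and 0.863%, 1.83% and 1.23%, and 4.30% and 4.52%, in the same order of lineages. For G2/M genes alone (Hmgb2 and Smc4 left out) they were 0.287% and 0.823%, 0.431% and 1.37%, 1.99% and 4.58%, and 4.84% and 9.79%. Thinned S shares thus differed little between batches, while G2/M shares were higher in Batch 2 in each lineage, with intervals that did not overlap in endothelial cells (1.03 to 3.46 against 3.59 to 5.74) and overlapped in immune cells (2.24 to 8.99 against 7.40 to 12.6). No class served as a background without cycle RNA. The 33 ciliated-like cells of Batch 2 (median 3562 UMIs before thinning) gave 1 cell with 2 member UMIs at 600 UMIs (3.03%) and 0 without Hmgb2 and Smc4, which allows up to 9.09%, but over all their UMIs they held 118 UMIs of the G2/M genes without Hmgb2 and Smc4, or 683 (565 to 818) CPM, above the 200 CPM of all epithelial cells. A single ciliated-like cell held 56 of the class's 158 UMIs of members other than Hmgb2 and Smc4, so that this interval is too narrow. The AT1-like cells, at 1.94% of 103 and 1.29% of 310, had shares near those of all epithelial cells.

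**Figure D3:**
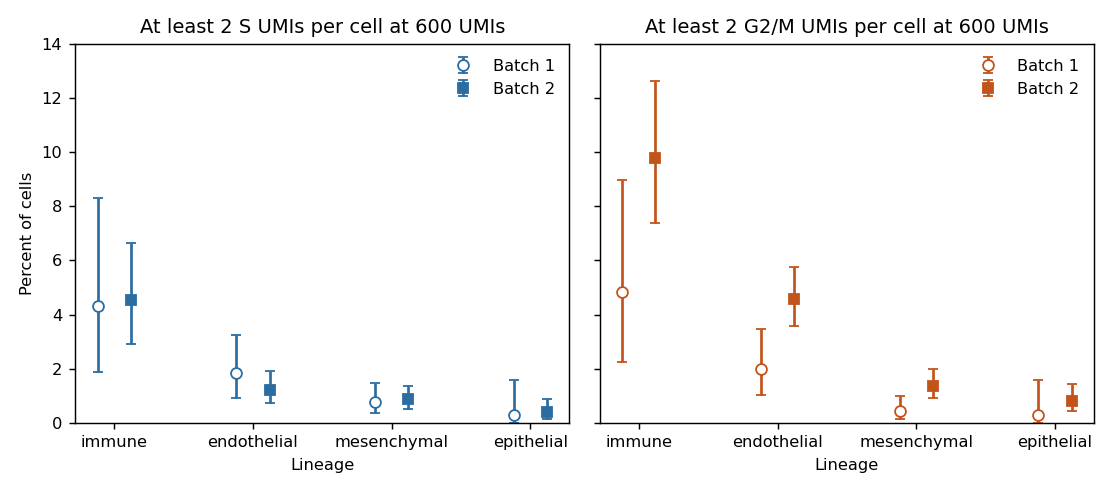
Percent of cells with at least 2 UMIs of S genes (without Slbp, left) or of G2/M genes (without Hmgb2 and Smc4, right) after each cell was thinned to 600 UMIs, by lineage and batch, with exact binomial 95% intervals as bars. S shares of the batches overlap in each lineage, and G2/M shares reach 9.79% in immune cells of Batch 2.

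Most members were higher in the cells that held other members of their own list than in those that held members of the other list. For each gene in turn, the cells were sorted by the UMIs of the other members at 600 UMIs per cell, with Hmgb2, Smc4 and Slbp left out of the sorting, a choice also made after their values were seen, and the gene's level was then read from all UMIs of the sorted cells. Up to 30 cells of Batch 1 and 69 of Batch 2 had at least 2 UMIs of other S genes and are called S cells here, and up to 31 and 171 had at least 2 UMIs of other G2/M genes and are called G2/M cells. A cell could be in both sets. All 27 G2/M genes were higher in CPM in the G2/M cells than in the S cells in both batches, and 16 of 21 S genes were higher in the S cells in both. For several of these S genes the Batch 1 part rests on equal counts in S cells and G2/M cells. Mcm5 had 4 and 4 UMIs, Cdt1 2 and 2, Ung 1 and 1 and Mcm6 8 and 8, so that only the smaller UMI total of the S cells set them apart. Mcm2 (2 and 1) and Cdc6 (3 and 2) differed by a single UMI. Mki67 stood at 575 CPM in G2/M cells, 142 in S cells and 9.6 in cells with no such UMI in Batch 1, and at 831, 214 and 14.9 in Batch 2. Cenpe showed 581, 31.5 and 6.7, and 709, 130 and 7.9. In the other direction Mcm3 was at 155 in S cells, 28.7 in G2/M cells and 9.2 in cells with none in Batch 1, and at 84.5, 28.7 and 7.3 in Batch 2. Mcm6 separated the sets in Batch 2 (142 in S cells against 28.7 in G2/M cells) and less in Batch 1 (132 against 115, 8 UMIs each). Uhrf1 was the S gene with more in G2/M cells in both batches, at 1.08 and 1.05 times the level in S cells, close to equal. The sets pool lineages, whose shares of them differed, and they are not independent of depth.

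**Figure D4:**
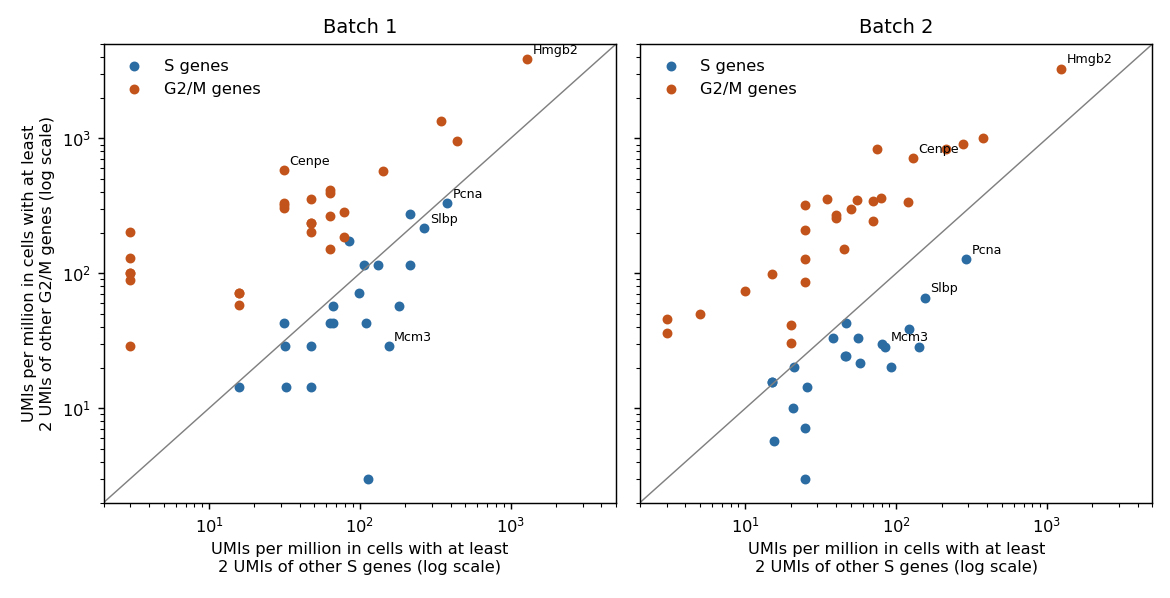
Level of each member in cells with at least 2 UMIs of other G2/M genes (vertical) against cells with at least 2 UMIs of other S genes (horizontal), in CPM on log axes, in Batch 1 and Batch 2, with values of 0 drawn at 3. The 27 G2/M genes lie above the line of equal levels in both panels and most S genes lie below it.

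Many UMIs of S genes also lay outside such cells. A median of 62.1% and 66.7% of an S gene's UMIs lay in cells with none of the sorting UMIs, against 44.4% and 27.7% for a G2/M gene, in Batch 1 and Batch 2. Sorting used thinned cells and levels used all UMIs, so cells in cycle could hold no sorting UMI by sampling. Over all UMIs, the sorting genes gave 1001 S against 1089 G2/M UMIs in Batch 1, and 3767 against 8210 in Batch 2. Cells in S phase could thus be missed more often, mainly in Batch 2. These shares and the ratios below do not show whether S genes were expressed outside cycling cells. The part of sorting in the difference between lists was not tested. Cells with at least 2 sorting UMIs of either list held a median of 9.58 and 4.22 times the level of cells with none for S genes, and 29.1 and 35.7 times for G2/M genes. The lowest ratios of the G2/M list were those of Smc4, 3.0 and 1.9, with 208 and 433 CPM in cells with none, and Hmgb2 had 8.6 and 6.0. Across pairs of members found in at least 10 thinned cells each, the median odds ratio of finding both in a cell was 4.09 and 2.55 for 28 pairs of S genes, 8.66 and 19.1 for 78 pairs of G2/M genes, and 3.98 and 2.51 for 104 pairs across the lists. These medians cannot show whether pairs within S were tighter than pairs across the lists. A small count was added to each entry of an odds ratio, which gave high odds to rarely found genes even where no cell held both. In Batch 1, Mcm2 with Fen1, within S, had 0 such cells and odds of 7.62. Fen1 with Cdc20, across the lists, had 0 and 9.80. Many S pairs rest on 0 to 2 cells with both genes, and the lineages were pooled, so that the odds are a description. Within lineages the same thinned cells were counted for UMIs of both lists, again without Slbp, Hmgb2 and Smc4. In immune cells, 6 of 186 and 31 of 531 held both an S and a G2/M UMI, where 3.10 and 18.2 would follow from independent shares, in Batch 1 and Batch 2. In endothelial cells 12 of 602 and 31 of 1551 did, where 5.62 and 22.95 would. Mesenchymal cells gave 6 of 1159 against 6.20 and 24 of 1971 against 15.7, and epithelial cells 0 of 349 against 0.997 and 4 of 1458 against 4.63. Cells with both were thus more than independence gives in immune and endothelial cells of both batches and in mesenchymal cells of Batch 2, and not in epithelial cells or in mesenchymal cells of Batch 1.

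Within lineages, cell classes named from fixed markers were compared, first among immune cells. Lymphocyte-like cells (54 and 66) had an S level of 754 (603 to 933) and 1191 (1026 to 1375) CPM, and a G2/M level without Hmgb2 and Smc4 of 710 (563 to 884) and 2299 (2067 to 2550). Macrophage-like cells (52 and 347) had 159 (84.8 to 272) and 459 (411 to 512), and 196 (112 to 318) and 1335 (1252 to 1422). A single cell held 24.2% and 21.7% of the lymphocyte-like UMIs of members other than Hmgb2 and Smc4. In macrophage-like cells it was 17.2% and 5.43%, so that these intervals are too narrow. The 52 macrophage-like cells of Batch 1 gave 0 UMIs of Mki67 and of Top2a, which allows up to 36.8 CPM of each, where the 347 of Batch 2 gave 125 and 75. Of 33 members tested, Mcm6 (0 and 11 UMIs against 8 and 15; -2.80 ± 0.71, adjusted p = 0.015) and Top2a (0 and 75 against 14 and 65; -2.0 ± 0.53, adjusted p = 0.0202) were called, both lower in macrophage-like cells. With 2 of 33 members against 7.83% of the 8378 genes tested (5.06% higher and 2.77% lower in macrophage-like cells), the count is at the background. Macrophage-like cells were 52 of 186 immune cells in Batch 1 and 347 of 531 in Batch 2, a difference that is in part one of naming. A further 57 immune cells of Batch 1 had no single class and held 114 of the 225 immune G2/M UMIs without Hmgb2 and Smc4. Of them, 39 formed a cluster with 10 of 10 macrophage markers raised, together with 4 of 5 basophil markers. The macrophage-like classes of the batches may therefore not hold the same kinds of cell, which limits the contrasts above.

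Neutrophil-like cells (23 and 90) held Hmgb2 at 1527 and 2244 CPM with an S level of only 136 (44.3 to 318) and 260 (198 to 335). Their S share without Hmgb2 and Smc4 was 25% (8.66 to 49.1) and 18.9% (14.8 to 23.7). A single cell held 45.0% of their 20 UMIs of members other than Hmgb2 and Smc4 in Batch 1, and 32.2% of 317 in Batch 2.

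In the endothelium, lymphatic endothelial-like cells (22 and 29) stood at 1035 (816 to 1296) and 733 (594 to 894) CPM for S and 1308 (1059 to 1597) and 2840 (2560 to 3142) for G2/M without Hmgb2 and Smc4. Vascular endothelial-like cells (539 and 1478) stood at 357 and 276, and 331 and 605. A single cell held 29.7% and 39.5% of the lymphatic UMIs of members other than Hmgb2 and Smc4, so that the intervals, which treat UMIs as independent, are too narrow there. On the authors' list, 1 of the 22 lymphatic cells of Batch 1 is a proliferative lymphocyte. Its part in the Batch 1 values was not tested. At 600 UMIs per cell, 3 of 22 and 9 of 29 lymphatic cells and 25 of 539 and 96 of 1478 vascular cells had at least 2 such UMIs.

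Mesenchymal classes differed in G2/M level in Batch 2 more than in S level. Matrix fibroblast-like cells (920 and 1284), which lay down the lung's collagen and elastin scaffold, had S levels of 203 (180 to 229) and 272 (252 to 293) and G2/M levels without Hmgb2 and Smc4 of 128 (110 to 149) and 372 (348 to 397). Pericyte-like cells (62 and 161) had 343 (222 to 506) and 301 (243 to 368), and 150.9 (75.3 to 270) and 205 (158 to 261). Myofibroblast/smooth muscle-like cells (177 and 241) had 212 (156 to 281) and 226 (182 to 277), and 110 (71.3 to 163) and 145 (110 to 187). In Batch 2 the G2/M interval of matrix fibroblast-like cells thus lay above those of the other classes, which overlapped each other. In Batch 1 all of them overlapped. A single cell of Batch 2 held 13.0%, 10.8% and 18.5% of the UMIs of members other than Hmgb2 and Smc4, in the same order of classes. These intervals are therefore too narrow. A further 285 mesenchymal cells of Batch 2 had no single class and held 278 of the 1322 mesenchymal G2/M UMIs without Hmgb2 and Smc4. Called between matrix fibroblast-like and myofibroblast/smooth muscle-like cells were Top2a (18 and 130 UMIs against 1 and 2; 3.03 ± 0.86, adjusted p = 0.0302) and Cenpe (13 and 87 against 1 and 3; 2.13 ± 0.65, adjusted p = 0.0458), 2 of 33 members where 7.81% of genes were called, 4.27% higher and 3.53% lower in matrix fibroblast-like cells. DESeq2 called 0 members in this comparison, and 4 members had an unadjusted p under 0.05 there. Between matrix fibroblast-like and pericyte-like cells edgeR called 0 of 33 members, with 7 at an unadjusted p under 0.05 and 0 called by DESeq2, where 8.38% of genes were called, 4.18% higher and 4.2% lower.

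**Figure D5:**
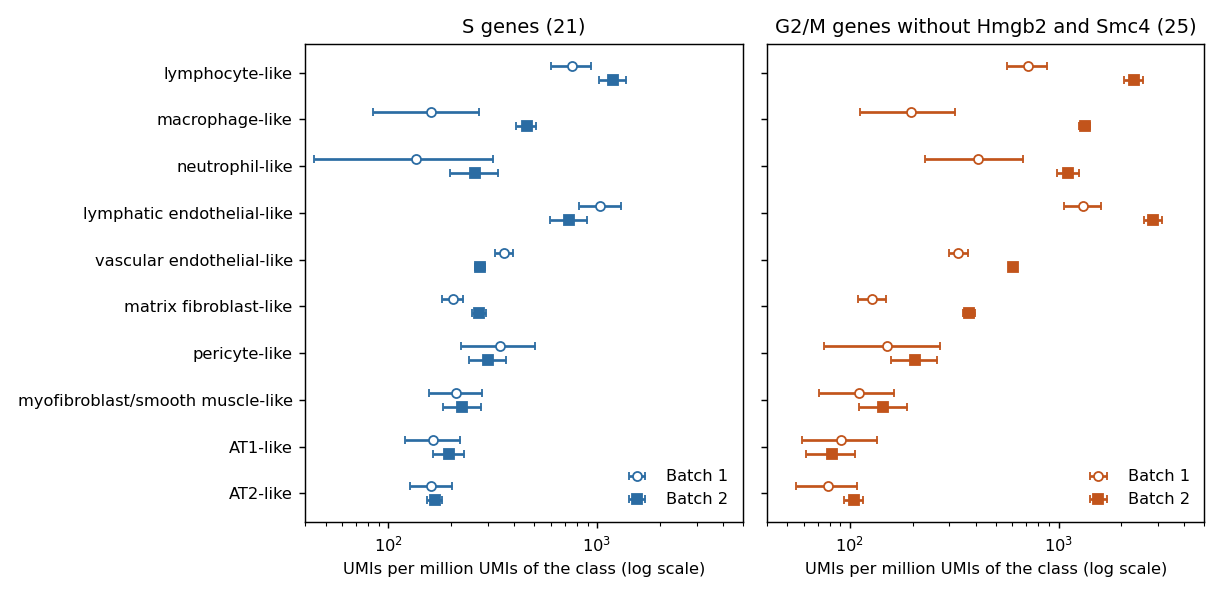
S level (left) and G2/M level without Hmgb2 and Smc4 (right) of the 10 named cell classes with at least 20 cells in each batch, in CPM of the class, on a log axis, with points for each batch and exact Poisson 95% intervals. Of the classes drawn, lymphatic endothelial-like and lymphocyte-like cells lie highest in both panels and batches; basophil-like cells, found in Batch 2 alone and not drawn, had an S level of 913 (754 to 1095) CPM.

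Alveolar epithelial cells were low in both lists. The AT1-like cells (103 and 310), the thin cells of gas exchange, had S levels of 164 (120 to 219) and 195 (164 to 231) CPM and G2/M levels without Hmgb2 and Smc4 of 91.1 (59.0 to 134) and 81.8 (62.0 to 106). The AT2-like cells (192 and 759), which secrete surfactant, had 161 (127 to 201) and 167 (154 to 180), and 78.4 (55.5 to 108) and 104 (94.2 to 116). Their intervals overlapped in each batch and list. One member, Rrm1, was called, with 5 and 27 UMIs in AT1-like against 0 and 12 in AT2-like cells (3.10 ± 0.72, adjusted p = 0.00612), where 10.4% of genes were called, 5.17% higher and 5.28% lower in AT1-like cells.

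Much of the epithelial Top2a and Cks2 came from few cells, an observation made after their values were seen. In Batch 2, 59 epithelial cells in clusters led by genes of ciliated cells, with a median of 6766 UMIs, held 282 of the 424 epithelial Top2a UMIs, or 357 CPM, spread over 31 cells with at most 52 in 1 cell. They also held 129 of 282 Cks2 UMIs (163 CPM), 56 of 111 Cdc20 UMIs, 28 of 52 Cdk1 UMIs and 34 of 82 Kif23 UMIs. Other G2/M genes were few there, with 8 Mki67 UMIs (10.1 CPM), 1 of Birc5, 1 of Cenpa, 4 of Ube2c and 0 of Nusap1. A further 29 cells, in another sub-cluster of the same cluster, gave 101 UMIs of Top2a, 73 of Cks2 and 6 of Mki67. The remaining 1370 epithelial cells gave 41 UMIs of Top2a (6.13 CPM), 80 of Cks2 (11.95 CPM) and 51 of Mki67 (7.62 CPM). Top2a in the 59 cells was thus above the 150 CPM of immune cells, whose Mki67 stood at 191. Batch 1 had 9 cells in such a cluster, with 4 Top2a UMIs in 1 cell, 5 Cks2 UMIs and 0 of Mki67, too few to compare. Doublets were not called, and their part in these cells was not tested.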

How the data were processed

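Drop-seq of whole lungs at postnatal day 1 was read from 2 matrices of UMI counts per gene and cell, as deposited by the authors, who aligned reads with Bowtie2 2.2.7 to mm10 per the labels. The values were raw counts, and each deposited cell had at least 500 genes detected. From these, cells with at most 10.0% mitochondrial UMIs were kept and clustered in each batch (leidenalg 0.10.2) without cycle genes. Clusters were named from fixed marker lists, whose naming thresholds and one sub-clustering were set after the leading genes of the clusters had been seen. No doublet caller was run. The members, gene lists and tests were chosen with earlier results of these data known. Every member called in a comparison is named with values or counts, with the members of most UMIs.

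Counts were summed per lineage or class and batch and tested in edgeR 4.0.16 (R 4.3.3; TMM, filterByExpr, quasi-likelihood, two-sided, Benjamini-Hochberg over all genes tested, called at an adjusted p under 0.05), all lineages in 1 fit with the batch as a block. Fitted differences are log2 with their SE. The lineages of a batch come from the same mouse, and deviations of same-batch sums correlated at 0.231 to 0.455 over 6 pairs of lineages. With the batch as a block, a p-value measures how far differences between lineages or classes varied over 2 lungs, 1 per batch. The difference between the lungs themselves was taken up by the block. The 4 class comparisons shared another fit over classes with at least 20 cells in each batch. Called members had the same sign in both batches, which is no separate check, since the same batches had called them. In simulated epithelial to endothelial counts of 12002 genes, 13% of 2-fold and 73% of 4-fold changes were found, and 16 of 102 calls were wrong with the spread of each gene as estimated; with the trended spread 19% and 83% were found and 4 of 106 calls were wrong. Single calls near the threshold are therefore less certain than the adjusted p states.

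Cells were thinned without replacement to 600 UMIs (seed 1). Intervals are exact at 95% and cover counting error only, since UMIs of 1 cell are not independent. Odds ratios have 0.5 added to each count. A UMI is counted once per molecule at its 3′ end and was not scaled by gene length. Alternatives were DESeq2 1.42.0, other filters, labels and depths, and each batch alone. Columns of cells from other samples were not present (0 unused).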

Additional observations from a re-analysis of the deposited data

Results flagged for a closer look

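Signals outside the comparisons were read in cells that no comparison used, each above the limit that a count of 0 allows. The 1940 cells of Batch 2 over the mitochondrial limit carried S genes at 231 CPM of non-mitochondrial UMIs (217 to 246), against 272 (264 to 280) in the kept cells, and G2/M genes without Hmgb2 and Smc4 at 261 (246 to 277), against 478 (468 to 488). The red cell lysis left clusters led by erythroid genes, with G2/M genes without Hmgb2 and Smc4 at 519 CPM in 40 cells of Batch 1 (405 to 656) and 1731 in 45 cells of Batch 2 (1560 to 1916). The S genes of these erythroid-led cells stood at 89.0 and 92.6, so that their S share without Hmgb2 and Smc4 was 14.6% and 5.08%, under the share of each of the 4 lineages. Mesothelial-like cells had S genes at 772 CPM in 22 cells of Batch 1 (538 to 1073) and 96.5 in 11 cells of Batch 2 (26.3 to 247), from 35 and 4 UMIs. Causes of these values were not tested.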

How the results depend on the processing

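Of 1026 alternative values for the 123 differences called, 801 stayed called in the same direction, 222 were no longer called and 3 turned sign: Cenpf between epithelial and mesenchymal cells with cycle genes kept in the clustering (0.68), and, with a lineage taken as the mean of its classes, Ube2c between endothelial and immune (0.28) and Mcm3 between mesenchymal and immune cells (0.29). Each batch alone has no test, since no residual degrees of freedom are left, and 0 of 246 such values turned sign. The differences had been called from these same batches, so that their sign in each batch is no separate check. Without the replicate block 74 of the 123 were lost, and the counts fell to 8, 1, 20, 3, 2 and 14 for the lineage comparisons in the report's order, and to 0 and 0 for matrix fibroblast-like against myofibroblast/smooth muscle-like and macrophage-like against lymphocyte-like cells. Thinning to 600 UMIs left 11, 4, 12, 6, 5 and 14, and 0 and 0, of fewer members tested. With class means, endothelial against mesenchymal cells gave 24, endothelial against immune 2 and mesenchymal against immune 19. Labels from a model trained on the authors' list gave 17 for endothelial against immune, 2 for matrix fibroblast-like against pericyte-like and 8 for macrophage-like against lymphocyte-like cells; clusters with cycle genes kept gave 5 for endothelial against immune. For the fibroblast to myofibroblast comparison, DESeq2, kept cycle genes and a 5% mitochondrial limit gave 0, no gene filter 1 and a fit of those classes alone 4; for macrophage-like against lymphocyte-like cells DESeq2 gave 4, a fit of those classes alone 1 and leaving out the 5% of cells with most UMIs 1. At the 5% limit AT1-like against AT2-like cells gave 1 call in the other direction, Cks2. These counts are not set beside the share of all genes called under the same setting, so they do not tell members from other genes. The causes were not tested.

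Averaged over batches, the S share moved from 21.9%, 19.99%, 21.4% and 18.6% in epithelial, endothelial, mesenchymal and immune cells to 56.9%, 41.0%, 52.9% and 35.8% without Hmgb2 and Smc4, and to 29.0% in mesenchymal and 25.9% in immune cells without the leading member of each list. Shares with at least 2 member UMIs, 10.2%, 21.3%, 14.7% and 26.4% at 600 UMIs, were 18.2%, 36.4%, 27.3% and 41.0% at 1000 UMIs, 2.33%, 8.25%, 4.18% and 14.7% for at least 3 UMIs, and 1.68%, 5.81%, 2.78% and 12.6% without Hmgb2 and Smc4; epithelial cells on the authors' list gave 6.69% in Batch 1. Removing Hmgb2 and Smc4 was chosen after the data were seen. Depth limits the genes with under 50 UMIs, and a member absent from a class may be under detection.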
